A study of Homo sapiens with 6 samples.

Results

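DNA replication genes encode the proteins that prepare, open and copy the genome in S phase, and 46 of them were followed here among the 58243 gene identifiers counted. They were picked by symbol as the genes for origin licensing, the replication fork and nucleotide supply, with E2F1 and the E cyclins as regulators of S-phase entry. No rule on measured values was used, but earlier results of these data were known when the list was made. All 46 were matched to an identifier, and all passed the filter on low counts.

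Before S phase, ORC, CDC6 and CDT1 load the MCM2 to MCM7 ring onto origins as an inactive helicase. CDC45 and the GINS complex then join it to form the active helicase, and PCNA, its loader RFC, the polymerases, RPA, FEN1 and LIG1 carry out synthesis. Many of these genes are targets of the E2F transcription factors, which the retinoblastoma protein restrains until cyclin-dependent kinases release them.

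RNA labelled with 4-thiouridine (4sU), given at 500 µM for 20 min, was measured in A375 cells, an established human melanoma line. The label selects newly made RNA, but the gene counts used here are reads on exons. Such reads can include spliced RNA and carried-over older mRNA, whose share was not measured. EV cells carried the empty vector as a stable transfection (3 libraries, numbered 1, 2 and 3). PRL3 cells stably expressed HA-tagged human PRL3, a phosphatase encoded by PTP4A3, from a plasmid (3 libraries, numbered 9, 10 and 11). Both lines were grown in hygromycin B, and each group is 1 transfected line, for which the number of clones is not given in the sources used here. The labels do not say whether the libraries of a group came from separate cultures, so p-values measure the spread between libraries, which may be technical.

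Between 36532207 and 57952035 reads per library fell on genes, and members had between 246 and 45393 counts each. PTP4A3 rose from 217 ± 59.4 to 24387 ± 3796 normalised counts (SD, n = 3 in each group) and so matched the labels. SOX10, PAX3, S100B and MITF, genes of the melanocyte lineage, were counted in every library, whereas the pigment genes TYR and MLANA were at or near 0. The other pigment genes of this marker list were also low, with PMEL at 26 to 61, TYRP1 at 0 to 20 and DCT at 1 to 11 counts. Summed markers of fibroblasts, keratinocytes, epithelia, vessels and immune cells were low, at 29.4 to 33.7 CPM (counts scaled to the reads on genes) in EV and 21.3 to 27.0 in PRL3 libraries. Within this sum the keratinocyte gene KRT14 was not near 0, with 889, 963 and 1338 counts in EV and 414, 825 and 328 in PRL3 libraries. In EV this was close to PAX3 (1102, 1043 and 1292 counts). EV library 1 held the highest EV value for 30 of the 46 members, and the counts of members called are therefore also given without it. Reads on no annotated exon took 28.7 to 41.1% of uniquely aligned reads in EV and 62.8 to 69.1% in PRL3 libraries, so the choice of scaling matters for every level below. Levels are normalised counts, that is counts scaled by the trimmed mean of M values (TMM), unless another scale is named.

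Promoter sequence is shown first because E2F sites tie many of these genes together. The windows below are the 150 bases before the start site in RefSeq (GRCh38.p14), for 4 genes that were lower in PRL3 cells, for CDT1, which did not pass the threshold, and for the higher genes ORC6 and RFC5. Their positions were chr20:33686386-33686535 on the minus strand for E2F1, chr2:135876444-135876593 on the minus strand for MCM6, chr20:5126623-5126772 on the minus strand for PCNA and chr16:85688955-85689104 on the minus strand for GINS2. The others were chr16:88803639-88803788 on the plus strand for CDT1, chr16:46689509-46689658 on the plus strand for ORC6 and chr12:118016553-118016702 on the plus strand for RFC5. Capitals mark the letters of an E2F site (TTTCCCGC, TTTCGCGC, TTTGCCGC or TTTGGCGC, read on either strand, which may overlap one another).
E2F1: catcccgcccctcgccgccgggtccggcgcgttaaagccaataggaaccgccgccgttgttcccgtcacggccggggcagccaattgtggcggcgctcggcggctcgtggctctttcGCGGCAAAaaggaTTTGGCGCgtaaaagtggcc
MCM6: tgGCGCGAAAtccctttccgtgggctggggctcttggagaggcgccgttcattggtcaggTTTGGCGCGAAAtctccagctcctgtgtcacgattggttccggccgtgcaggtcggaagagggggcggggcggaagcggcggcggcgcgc
PCNA: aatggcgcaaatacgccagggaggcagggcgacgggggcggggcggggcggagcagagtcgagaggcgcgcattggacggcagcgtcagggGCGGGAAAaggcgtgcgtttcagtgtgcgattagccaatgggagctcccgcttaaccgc
GINS2: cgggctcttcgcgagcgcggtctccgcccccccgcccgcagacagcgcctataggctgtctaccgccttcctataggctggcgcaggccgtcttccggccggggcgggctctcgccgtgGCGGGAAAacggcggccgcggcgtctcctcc
CDT1: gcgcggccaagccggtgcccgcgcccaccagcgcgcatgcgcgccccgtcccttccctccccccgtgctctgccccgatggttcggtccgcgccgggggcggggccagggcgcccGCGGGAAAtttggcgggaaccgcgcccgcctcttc
ORC6: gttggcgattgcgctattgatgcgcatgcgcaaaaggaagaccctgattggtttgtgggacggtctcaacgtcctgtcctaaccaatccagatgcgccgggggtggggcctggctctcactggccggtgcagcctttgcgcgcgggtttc
RFC5: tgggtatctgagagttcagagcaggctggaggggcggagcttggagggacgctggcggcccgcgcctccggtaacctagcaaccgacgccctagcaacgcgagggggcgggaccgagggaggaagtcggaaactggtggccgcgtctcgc

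The windows of RFC5 and GINS2 lie inside the genes as GENCODE draws them, whose spans begin further upstream than the RefSeq start, and are intronic there apart from 2 exon bases in RFC5. The others lie before the GENCODE start, except for 4 exon bases in PCNA and 26 in ORC6, where exons of ORC6 and of VPS35 reach in. Over the longer RefSeq window, 250 bases before to 50 after the start, 39 of the 46 members had an entry. E2F letters were found in 19 of these 39 (48.7%), against 5.16% of 11616 promoters of protein-coding genes tested and 3.33% of all 27305 promoters in the table. The letters were as common among members that were lower in PRL3 cells (10 of 20) as among members that did not pass the threshold (9 of 17), and were in neither of the 2 higher members with an entry. All 4 lower genes printed above carry the letters, so the windows shown do not stand for the lower members. CCAAT, read on both strands, was in 23 of 39 (59.0%) against 36.9% of the protein-coding promoters. The cell-cycle letters TTTGAA or TTCGAA were in 2 of 39 (5.13%) against 11.5%. These are matches of letters in a window, and binding was not measured.

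The comparison of PRL3 with EV cells asked whether transcription of replication genes moved with PRL3 expression. Of the 46 members, 24 fell and 3 rose with PRL3 at the threshold of 0.05 on the adjusted p, and 19 did not pass (edgeR quasi-likelihood test, adjusted over all 23884 genes tested). In the same test 22.7% of all genes were lower and 20.0% higher, and among protein-coding genes 31.6% were lower and 15.2% higher. The members thus stood at 52.2% lower and 6.52% higher. The median log2 fold change of the members was -0.45, where all genes tested had 0.11 and protein-coding genes -0.15. The PRL3 values were all under the EV values in 27 members and all above them in 3, while 16 overlapped. Over all genes tested 26.6% lay below and 29.7% above, and over protein-coding genes 36.7% and 22.2%.

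These counts moved with the scaling. Scaling by the reads on genes alone gave 13 lower and 11 higher, with a median of 0.05, and scaling by all uniquely aligned reads gave 39 lower and 0 higher, with a median of -0.94. Under these scalings the median of all genes was itself at 0.60 and -0.36, and under upper-quartile scaling at 0.29. Relative to the median of all genes, the members' median was -0.56 with TMM, -0.55 with library size alone and -0.57 with all aligned reads. Relative to protein-coding genes it was -0.30, -0.30 and -0.31. A change of scaling shifts all genes by nearly the same amount, so these differences are near constant by construction and test nothing. By role, the medians of licensing (0.07), helicase activation (0.10), clamp and loader (0.36) and polymerase genes (0.06) were above 0 with library size alone. Those of RPA and maturation (-0.43), nucleotide supply (-0.54) and S-phase entry (-0.35) stayed below 0. Without EV library 1 the counts were 22 lower and 3 higher. From bulk exon counts alone, fewer cells in S phase, less new RNA per cell and a changed share of mature RNA cannot be told apart. The paper reported no discernible change in growth or cell-cycle stages of A375 cells with PRL3 overexpression, and the counts measure neither.

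The following 13 genes were lower in every one of the 5 scalings and 16 settings tried: MCM6, MCM7, GINS2, PCNA, POLD1, POLD2, RPA1, RPA2, RPA3, RRM1, TYMS, TK1 and E2F1. No member was higher in all of them. ORC6 and RFC5 were higher in each of the 6 fits that left out 1 library, but not when counts were scaled by all aligned reads (log2 fold changes of 0.38 and 0.15, neither past the threshold). The plot of scalings shows how far the whole list shifts.

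**Figure D1:**
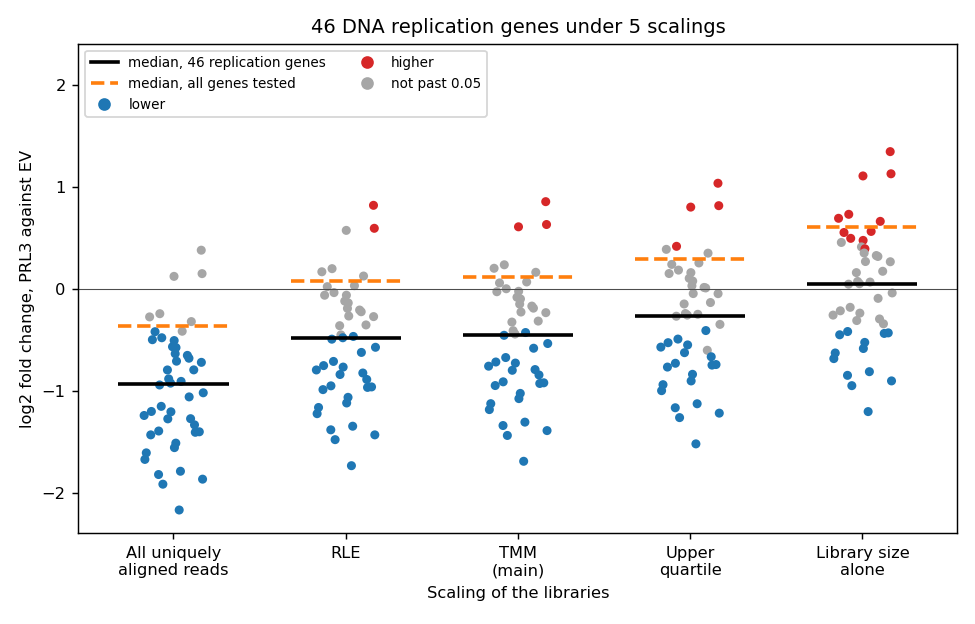
Log2 fold change (PRL3 against EV) of each of the 46 replication genes under 5 scalings of the same counts, with lines for the medians of the members and of all genes tested and colours for the call. The members' median runs from 0.05 with library size alone to -0.94 with all uniquely aligned reads, and the median of all genes runs from 0.60 to -0.36.

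Origin licensing was the largest group, and 6 of its 13 genes fell, 1 rose and 6 did not pass, with a median log2 fold change of -0.41. Of the 6 helicase subunits, MCM2 to MCM7, 5 fell, with a median of -0.78. MCM7 (ENSG00000166508, chr7:100092233-100101940, GRCh38) gave 45494, 48402 and 41276 normalised counts in EV libraries and 14426, 19765 and 15616 in PRL3 libraries. The PRL3 libraries all lay far below EV, and MCM7 was 2.71-fold lower (log2 fold change -1.44, SE 0.17, edgeR adjusted p = 2.7e-05). Its exons share 29 bases with another gene on the same strand, so a small part of its reads may be counted elsewhere.

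MCM6 gave 7244, 5352 and 4657 in EV and 2676, 2764 and 3022 in PRL3, and was 2.04-fold lower (-1.03, SE 0.18, adjusted p = 0.00044). MCM2 gave 18827, 22970 and 19627 in EV and 10664, 13964 and 10624 in PRL3 (-0.80, SE 0.16, adjusted p = 0.0016). For both genes the groups were apart in all libraries, although EV library 1 was well above the other EV libraries for MCM6. MCM4 gave 22189, 17531 and 17227 in EV against 12531, 10895 and 10185 in PRL3 (-0.76, SE 0.16, adjusted p = 0.0019). MCM5 gave 11331, 14356 and 12301 against 7755, 9567 and 8008 (-0.58, SE 0.16, adjusted p = 0.0085). Neither pair of groups overlapped, and the call of MCM5 was lost without PRL3 library 11 (-0.54, adjusted p = 0.055). With library size alone, MCM2, MCM4 and MCM5 kept their sign but did not pass.

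MCM3 stood apart from the other subunits. It gave 12370, 11737 and 10646 in EV and 9626, 10170 and 9845 in PRL3, so all PRL3 values were lower, but by only -0.23 on the log2 scale (SE 0.14, adjusted p = 0.21), and the sign turned with library size alone (0.27). The subunits assemble in equal numbers, yet their share of the summed MCM2 to MCM7 counts per kilobase of exon was not the same in both groups. MCM7 made up 41.9 ± 0.616% of the sum in EV libraries and 28.9 ± 2.07% in PRL3 libraries (SD, n = 3). MCM3 made up 14.7 ± 0.641% and 23.6 ± 1.61%, and MCM5 8.05 ± 0.871% and 10.1 ± 0.191%. The shares of MCM2 (20.1 ± 1.75% and 21.5 ± 1.37%), MCM4 (8.90 ± 1.21% and 9.94 ± 1.64%) and MCM6 (6.40 ± 1.31% and 5.96 ± 0.727%) had overlapping ranges of mean ± SD. These shares were not tested, and a share within a library shows unequal change only. Exon length merges all exons annotated for a gene, so the size of a share depends in part on the annotation.

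ORC6, a subunit of the origin recognition complex, went the other way (ENSG00000091651, chr16:46689643-46698394). It gave 2136, 2010 and 2321 in EV libraries and 3918, 3781 and 3989 in PRL3 libraries, with no overlap and little spread. ORC6 was 1.81-fold higher (0.85, SE 0.14, adjusted p = 0.00037). ORC3, another subunit of that complex, fell (1074 ± 171 to 652 ± 100, log2 fold change -0.72, SE 0.19, adjusted p = 0.0080), and its call was lost without PRL3 library 10 (-0.59, adjusted p = 0.057). ORC1 and ORC2 did not pass, at -0.03 and -0.24. With 1 of 4 lower and 1 of 4 higher, these subunits were near the shares of all genes tested, and ORC4 (0.13) and ORC5 (-0.05), counted among the other replication genes, did not pass either.

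The loaders and their inhibitor did not pass the threshold. CDC6, the ATPase that works with ORC, was at -0.0010 (SE 0.14, adjusted p = 0.996). CDT1, which brings the MCM ring to the origin, was at -0.41 (SE 0.18, adjusted p = 0.088), and GMNN, geminin, its inhibitor, at -0.32 (SE 0.18, adjusted p = 0.17). Without EV library 1, CDT1 passed as lower (-0.57, adjusted p = 0.014). The ratio of CDT1 to GMNN counts within a library, which needs no scaling, was 1.03, 2.21 and 1.88 in EV and 1.56, 1.59 and 1.43 in PRL3 libraries, and so overlapped (two-sided exact permutation p = 0.9).

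**Figure D2:**
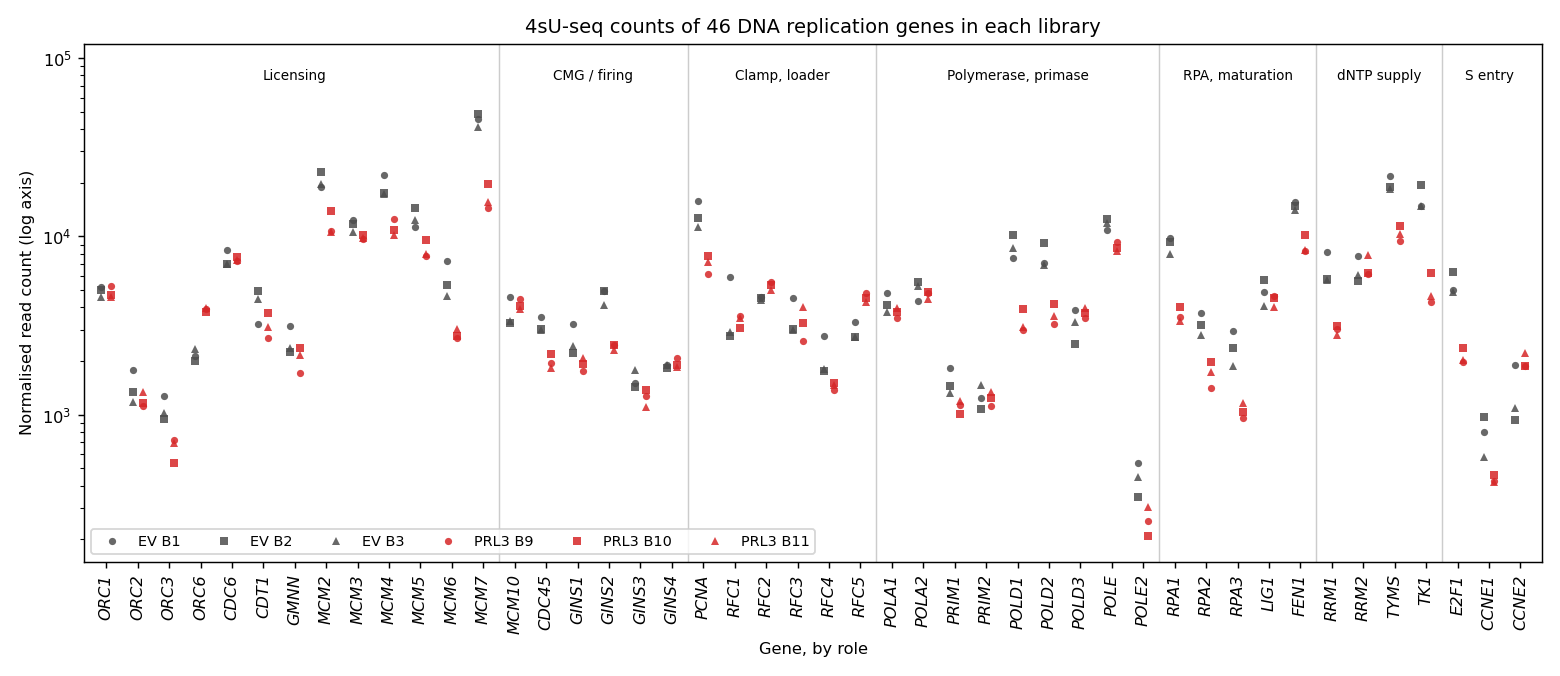
Normalised counts of the 46 replication genes in each of the 6 libraries, grouped by role, on a log axis, with EV libraries in grey and PRL3 libraries in red (B1 to B3 and B9 to B11 are libraries 1 to 3 and 9 to 11). MCM7, POLD1, RPA1, TK1 and E2F1 show the groups fully apart with PRL3 below, ORC6 and RFC5 show PRL3 above, and CDC6, ORC1 and RRM2 show them mixed.

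Among the 6 genes that turn the loaded ring into a working helicase, 2 fell (33.3%) and 0 rose, with a median of -0.39. The share lower was near the 31.6% of protein-coding genes. GINS2 gave 4932, 4926 and 4127 normalised counts in EV and 2456, 2469 and 2310 in PRL3, a tight and complete separation (-0.95, SE 0.15, adjusted p = 0.00020). The remaining GINS subunits moved less. GINS1 lay just outside the threshold, with 3229, 2209 and 2423 in EV against 1762, 1928 and 2083 in PRL3 (-0.45, SE 0.17, adjusted p = 0.051). All 3 PRL3 values of GINS1 were below EV, and it passed under some other settings, such as scaling by relative log expression (RLE). GINS3 was at -0.33 and GINS4 at 0.06, neither past the threshold. CDC45, the partner of MCM and GINS in the helicase, fell from 3180 ± 287 to 1990 ± 174 (-0.68, SE 0.15, adjusted p = 0.0027). MCM10, which helps origins to fire, was the highest of the group and overlapped, at 4546, 3269 and 3338 in EV and 4481, 4085 and 3897 in PRL3 (0.16, SE 0.16, adjusted p = 0.46).

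PCNA is the sliding clamp that holds polymerases on DNA. Its level was 15717, 12665 and 11314 in EV libraries and 6150, 7753 and 7161 in PRL3 libraries. The groups did not overlap, and PCNA was 1.88-fold lower (-0.91, SE 0.17, adjusted p = 0.00069). The RFC subunits, which load the clamp, had a median of -0.08 with 1 of 5 lower and 1 of 5 higher. These shares were near the 22.7% and 20.0% of all genes tested. RFC5 was the highest, with 3303, 2736 and 2742 in EV and 4817, 4494 and 4269 in PRL3 and no overlap (0.63, SE 0.15, adjusted p = 0.0039). RFC4 fell (-0.54, SE 0.19, adjusted p = 0.033), a call that held in 2 of the 6 fits without 1 library and was lost without EV library 1 (-0.30, adjusted p = 0.11) or without any 1 of the PRL3 libraries (adjusted p of 0.078 to 0.12).

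RFC1, RFC2 and RFC3 did not pass (-0.19, 0.23 and -0.08). RFC1 gave 5904 in EV library 1 but 2770 and 2903 in the others, and without library 1 its value turned to 0.25. The within-library ratio of PCNA to RFC1 counts was 2.66, 4.57 and 3.90 in EV and 1.72, 2.53 and 2.04 in PRL3 libraries. The groups did not overlap (log2 difference -0.80), and p = 0.1 is the smallest that the two-sided exact permutation test of 3 against 3 can give (0.23 after adjustment over 7 ratios).

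Of the polymerase and primase genes 5 of 9 were lower and 0 higher, with a median of -0.43. POLD1, the catalytic subunit of polymerase delta, gave 7537, 10236 and 8555 in EV and 2992, 3916 and 3117 in PRL3, and was 2.63-fold lower (-1.39, SE 0.17, adjusted p = 3.6e-05). Its exons share 426 bases with a gene on the same strand. POLD2, the accessory subunit, was 2.11-fold lower (-1.08, SE 0.17, adjusted p = 0.00020), whereas the third subunit measured, POLD3, was the highest of the group. POLD3 gave 3880, 2498 and 3321 in EV and 3499, 3694 and 3947 in PRL3, and the groups overlapped (0.20, SE 0.17, adjusted p = 0.38).

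For polymerase epsilon, the catalytic POLE and the accessory POLE2 were both lower (-0.43, adjusted p = 0.026 and -0.79, adjusted p = 0.019). Both calls were unsteady, since POLE passed in 2 and POLE2 in 3 of the 6 fits without 1 library. POLE was lost without EV library 2 (-0.37, adjusted p = 0.076) and without each PRL3 library (-0.47 to -0.38). POLE2 was lost without EV library 1 (-0.63), PRL3 library 9 (-0.78) and PRL3 library 10 (-0.66). The primase subunit PRIM1 was lower (-0.46, SE 0.17, adjusted p = 0.047) in the full set but in only 1 of the 6 fits, the one without EV library 3. PRIM2, POLA1 and POLA2, which complete the priming enzyme, did not pass (-0.03, -0.17 and -0.10). Ratios of POLA1 to POLA2, PRIM1 to PRIM2 and POLE to POLE2 overlapped between the groups (log2 differences of -0.07, -0.43 and 0.36, with exact permutation p of 0.9, 0.2 and 0.2).

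RPA coats single-stranded DNA, and all 3 of its genes fell, with a median of -1.19. RPA1 gave 9804, 9274 and 7951 in EV and 3536, 3993 and 3373 in PRL3, a 2.48-fold difference with no overlap (-1.31, SE 0.15, adjusted p = 2.7e-05). RPA2 was 1.90-fold lower (-0.92, SE 0.17, adjusted p = 0.00089) and RPA3 was 2.28-fold lower (-1.19, SE 0.19, adjusted p = 0.00023). FEN1, the nuclease that trims Okazaki fragments, fell from 14855 ± 850 to 8954 ± 1096 (-0.73, SE 0.15, adjusted p = 0.0016), and with library size alone it did not pass (-0.24). LIG1, the ligase that joins the fragments, gave 4865, 5690 and 4070 in EV and 4619, 4515 and 4027 in PRL3. The groups overlapped, and LIG1 did not pass (-0.15, SE 0.16, adjusted p = 0.47).

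Nucleotide supply held the lowest member of all. TK1, thymidine kinase of the salvage route (ENSG00000167900, chr17:78174091-78187233), gave 14789, 19408 and 14861 in EV libraries and 4294, 6216 and 4651 in PRL3 libraries. The highest PRL3 value was far under the lowest EV value, and TK1 was 3.23-fold lower (-1.69, SE 0.18, adjusted p = 1.9e-05). TYMS, which makes thymidylate, gave 21822, 18903 and 18499 in EV and 9391, 11415 and 10271 in PRL3 (-0.93, SE 0.15, adjusted p = 0.00031). RRM1, the large subunit of ribonucleotide reductase, gave 8139, 5798 and 5729 against 3039, 3163 and 2791 (-1.13, SE 0.17, adjusted p = 0.00016). In all 3 genes the groups did not overlap.

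RRM2, the small subunit of the same enzyme, did not follow RRM1. It gave 7774, 5607 and 6059 in EV and 6163, 6270 and 7912 in PRL3, with overlap (0.07, SE 0.17, adjusted p = 0.78). The ratio of RRM1 to RRM2 counts within a library was 1.05, 1.03 and 0.946 in EV and 0.493, 0.505 and 0.353 in PRL3 libraries. It was lower in all 3 PRL3 libraries, a log2 difference of -1.18, with an exact permutation p = 0.1 (adjusted p = 0.23).

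Of the genes that govern S-phase entry, E2F1 and CCNE1 fell and CCNE2 passed as higher. E2F1, an activating E2F factor (ENSG00000101412, chr20:33675477-33686385), gave 4982, 6276 and 4903 in EV and 1972, 2380 and 2017 in PRL3. It was 2.54-fold lower, with no overlap (-1.34, SE 0.16, adjusted p = 3.3e-05). CCNE1 and CCNE2 encode the cyclins E that activate CDK2. CCNE1 gave 803, 969 and 578 in EV and 425, 461 and 418 in PRL3, again with no overlap (-0.85, SE 0.21, adjusted p = 0.0059).

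CCNE2 was the member just inside the threshold, and its groups overlapped. It gave 1891, 934 and 1095 in EV and 1870, 1877 and 2219 in PRL3 (0.61, SE 0.23, adjusted p = 0.048). EV library 1 decided this value. Without it CCNE2 was at 0.97 (adjusted p = 0.00066), and without any other library the call was lost (0.43 to 0.66, adjusted p of 0.081 to 0.16). The ratio of CCNE1 to CCNE2 counts was 0.424, 1.04 and 0.528 in EV and 0.227, 0.246 and 0.188 in PRL3 libraries, with no overlap. The log2 difference was -1.49, with an exact permutation p = 0.1 (adjusted p = 0.23). The plot of within-library ratios shows the 7 pairs side by side.

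**Figure D3:**
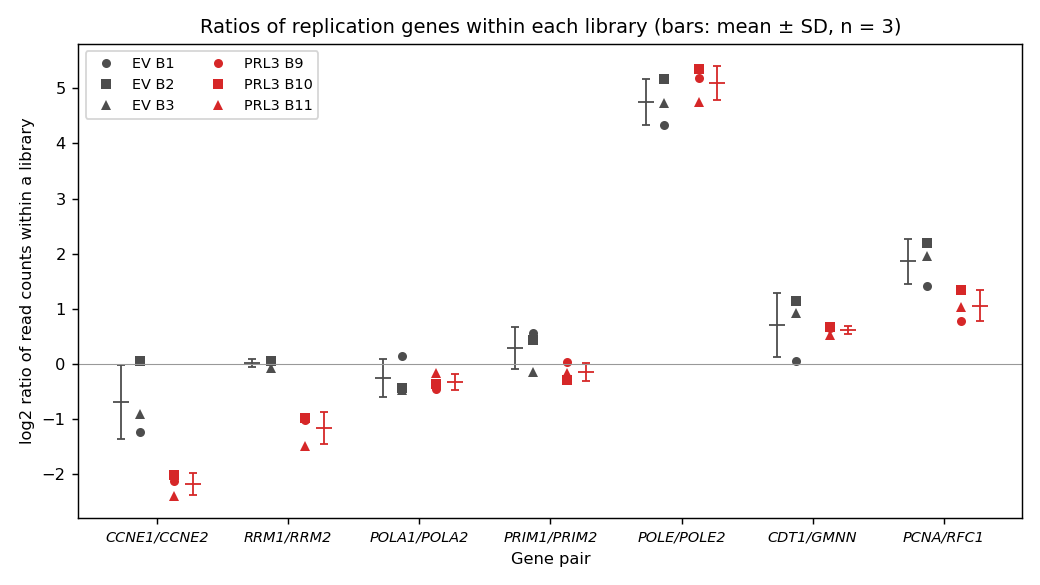
Log2 ratios of counts of 7 gene pairs within each library, for EV (grey) and PRL3 (red) libraries, with bars for the mean ± SD (n = 3). CCNE1/CCNE2, RRM1/RRM2 and PCNA/RFC1 do not overlap between the groups (log2 differences of -1.49, -1.18 and -0.80), and the other 4 pairs overlap.

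**Figure D4:**
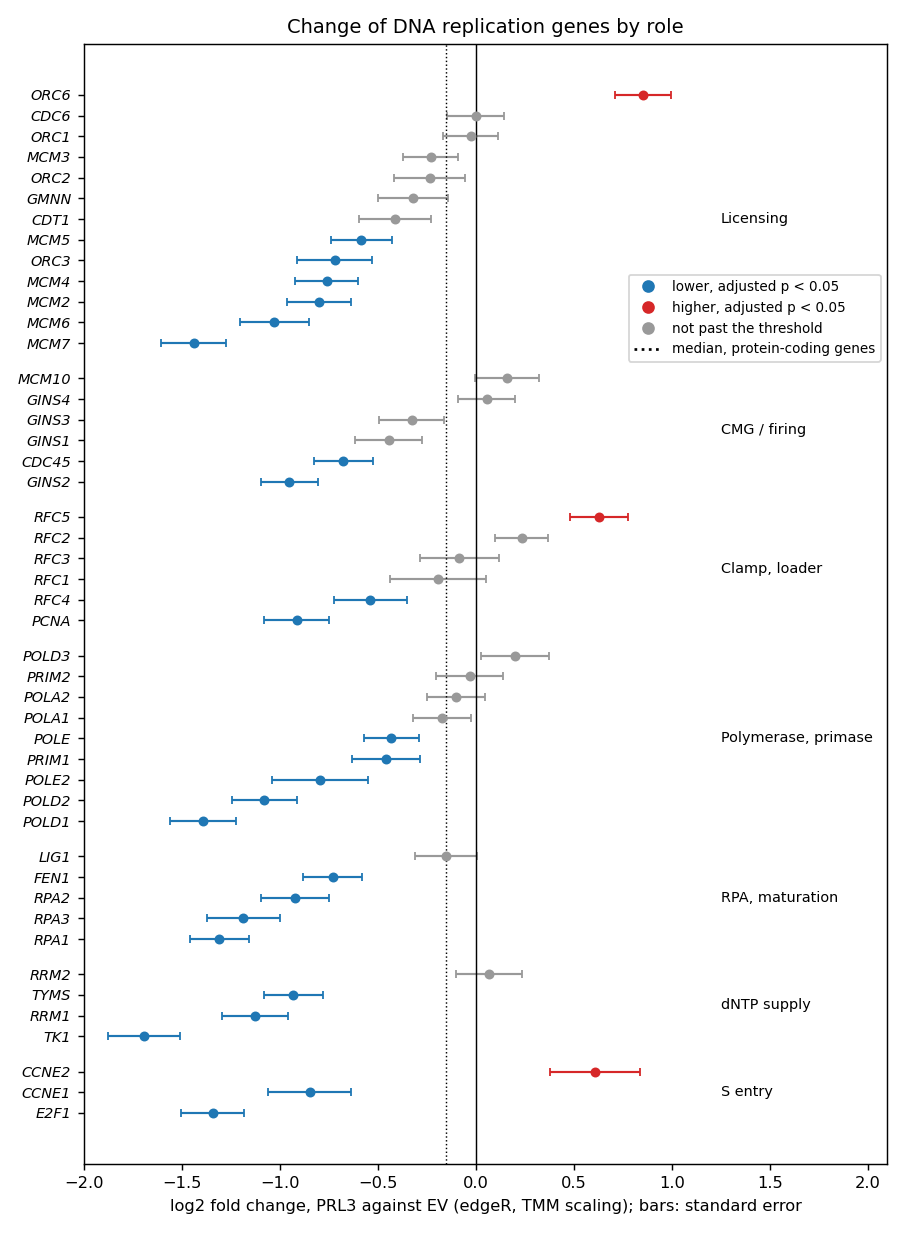
Log2 fold change of each member (PRL3 against EV, edgeR with TMM scaling, bars are standard errors), ordered within roles, with the median of protein-coding genes as a dotted line at -0.15. RPA, dNTP supply and S-phase entry have the lowest medians (-0.92 with FEN1 and LIG1, -1.03 and -0.85), and the clamp and loader group the highest (-0.14).

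The order of the members by level differed between the groups. Per kilobase of exon, PCNA (9431 ± 1607 normalised counts), MCM7 (9084 ± 722), TK1 (8863 ± 1434) and TYMS (8154 ± 749) were the highest in EV cells, and these neighbours lay within their spread of each other. FEN1 (6758 ± 387) came next. In PRL3 cells PCNA (5004 ± 578) was followed by TYMS (4279 ± 419), FEN1 (4074 ± 499), MCM7 (3347 ± 565), TK1 (2739 ± 554) and MCM3 (2711 ± 75.2), again with neighbours inside their spread. POLE2 was the lowest in both groups, at 150 ± 33.0 and 86.9 ± 16.2. Exon length here merges all exons annotated for a gene, so this order depends in part on the annotation.

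Members were also compared by the length of their genes. Among 18 members under 20 kb, 11 were lower and 3 higher (61.1% lower), with a median of -0.75. Among 14 members of 20 to 50 kb, 9 were lower (64.3%, median -0.63), and among 14 of 50 kb or longer, 4 were lower (28.6%, median -0.21). All protein-coding genes ran the same way, with 45.4%, 34.3% and 17.4% lower and medians of -0.51, -0.20 and 0.07. Spearman's rho between gene length and log2 fold change was 0.24 over the 46 members and 0.30 over 14443 protein-coding genes, as a description over genes of the same 6 libraries. In each length class the members' median was below that of protein-coding genes. The part of gene length in the members' change, and in the within-library ratios of gene pairs, was not tested.

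**Figure D5:**
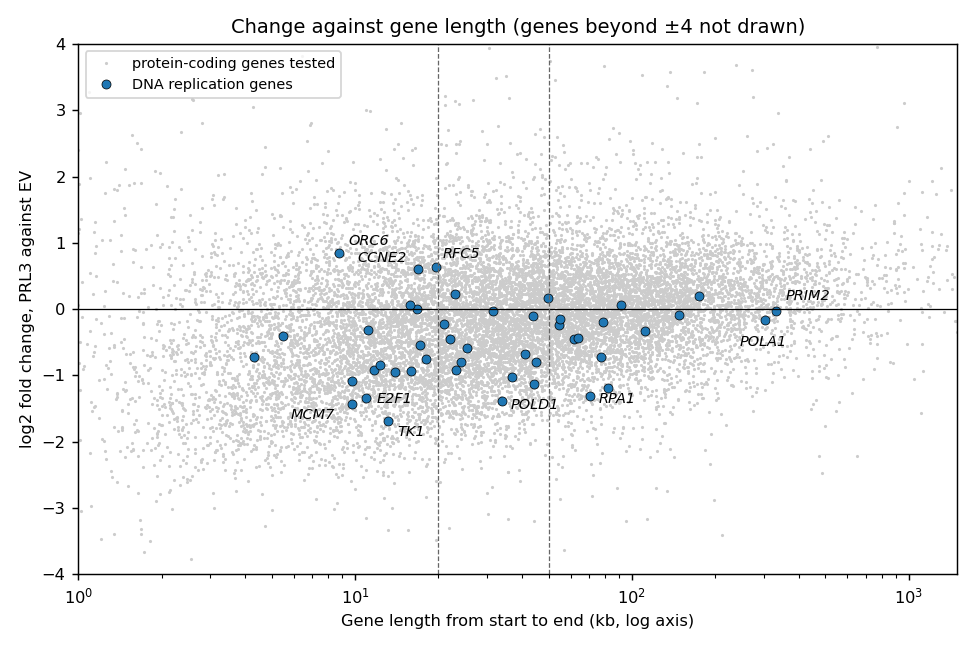
Log2 fold change (PRL3 against EV) of the 46 members against gene length in kb on a log axis (blue), over all protein-coding genes tested (grey), with dashed lines at 20 and 50 kb. Members under 20 kb have a median of -0.75 and those of 50 kb or longer -0.21, where protein-coding genes have -0.51 and 0.07.

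Summed over the list, members made up 5892, 5681 and 5629 CPM in EV libraries and 5163, 5125 and 4996 CPM in PRL3 libraries, on library size alone, and the groups did not overlap. On this scale 13 members were lower and 11 higher, with a median log2 fold change of 0.05. The sum gives most weight to abundant members such as MCM7, so its fall does not describe the list as a whole. A list of 40 mitosis genes summed to 5539 ± 628 CPM in EV and 6192 ± 285 CPM in PRL3 (SD, n = 3). For the mitosis genes the groups overlapped, with 6263 CPM in EV library 1 and 5868 CPM in PRL3 library 10. The ratio of replication to mitosis reads within a library was 0.941, 1.10 and 1.08 in EV and 0.807, 0.873 and 0.792 in PRL3. This ratio needs no scaling, and it was lower in all PRL3 libraries, by a log2 difference of -0.34 (-0.24 without MCM7, the most abundant member). Freedom from scaling does not take out a trend with gene length, and the gene lengths of the lists were not compared.

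Further genes of the same pathway were counted from lists that were also made by symbol, with earlier results of these data known. Of 37 other replication genes, 17 were lower (45.9%) and 2 higher (5.41%), with a median of -0.43, beside 31.6% and 15.2% of protein-coding genes. The lowest were RNASEH2A, the catalytic subunit of ribonuclease H2, and the helicase gene RECQL4 (both -1.48, adjusted p = 2.5e-05 and 5.9e-05). The highest were MCM9, a helicase of repair (0.96, adjusted p = 0.00028), and TICRR, an origin-firing factor (0.50, adjusted p = 0.014). TICRR kept its call in 4 of the 5 scalings and was at 0.026 with all aligned reads. With library size alone the counts were 5 lower and 9 higher, and with all aligned reads 29 and 1.

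Regulators in the E2F, RB and CDK list took both directions, with a median of -0.19. Of 28 tested, 10 were lower (35.7%) and 11 higher (39.3%), beside 31.6% and 15.2% of protein-coding genes. The counts were 7 lower and 13 higher with library size alone, and 16 and 3 with all aligned reads. E2F8, a repressor, gave 1047, 848 and 1031 in EV and 2441, 2320 and 2648 in PRL3, with no overlap (1.34, SE 0.16, adjusted p = 3.1e-05). E2F7, its close relative, was also higher (0.99, adjusted p = 0.00053). The direction did not follow the usual classes of activators and repressors. Of the activators, E2F1 was lower, whereas E2F2 (0.63, adjusted p = 0.0077) and E2F3 (0.39, adjusted p = 0.035) were higher. With all aligned reads E2F2 was at 0.15 and E2F3 at -0.086. Of the repressors, E2F4 (-0.995, adjusted p = 0.00023) and E2F5 (-0.79, adjusted p = 0.011) were lower, and E2F6 was higher (0.38, adjusted p = 0.044, but -0.091 with all aligned reads).

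The G1 kinase genes also differed from each other, since CDK4 was lower (-1.60, adjusted p = 1.8e-05) and CDK6 higher (0.97, adjusted p = 0.00029). Among genes of CDK inhibitors, CDKN1C (-1.72, adjusted p = 0.00058), CDKN2D (-1.43, adjusted p = 0.00029) and CDKN1A (-0.86, adjusted p = 0.00080) were lower. CDKN2A (0.89, adjusted p = 0.019) and CDKN1B (0.66, adjusted p = 0.0084) were higher, and CDKN2C did not pass (-0.076). E2F7, E2F8 and CDK6 were higher, and E2F4, CDK4, CDKN1C, CDKN2D and CDKN1A lower, under all 5 scalings. CDK2, the partner of cyclin E, was lower (-0.58, adjusted p = 0.0071) but not with library size alone, and CCNA2, the S-phase cyclin, did not pass (-0.18, adjusted p = 0.41).

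In the mitosis list 13 of 40 genes were lower (32.5%) and 2 higher, with a median of -0.22, so that the share lower was about that of protein-coding genes (31.6%). The counts moved with the scaling (7 and 8 with library size alone, 28 and 0 with all aligned reads). CCNB1, the mitotic cyclin (-1.47, adjusted p = 2.5e-05), and CDC20, an activator of the anaphase-promoting complex (-1.15, adjusted p = 0.00013), were the lowest. SMC4, a condensin subunit (1.03, adjusted p = 0.0020), and INCENP (0.55, adjusted p = 0.0074) were the highest. With all aligned reads SMC4 was at 0.55 and INCENP at 0.071, and each kept its call in 4 of the 5 scalings. The proliferation marker MKI67 gave 36470, 24296 and 28537 in EV and 51961, 40469 and 39810 in PRL3, higher in all PRL3 libraries (0.57, SE 0.18, adjusted p = 0.023). It did not pass with all aligned reads (0.084).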

How the data were processed

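Reads were aligned by the authors to GRCh38 with STAR (2.5.1b) and counted per Ensembl gene with HTSeq (0.6.1) on the expected strand, per the submitters' processing notes. The deposited values are these raw counts, without normalization, in 6 libraries. Reads on no annotated exon were listed in the same files and were left out of library sizes, except in the scaling by all uniquely aligned reads. Symbols, exon lengths and positions were taken from GENCODE on GRCh38, for which 57532 of 58243 identifiers matched.

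The PRL3 group was tested against EV with edgeR 4.0.16 in R 4.3.3 (TMM scaling, filterByExpr, quasi-likelihood test, Benjamini-Hochberg adjustment over the 23884 genes kept, threshold 0.05). Standard errors were derived from the F statistic. Normalised counts are counts over the effective library size times its mean. Within-library ratios were compared by two-sided exact permutation. No pair of libraries agreed within sampling noise (the lowest chi-square per gene, on average, was 24.7), so each was counted as 1 replicate. The fit was tested on simulated data. Alternatives were RLE, upper-quartile, library-size and all-aligned scaling, DESeq2 1.42.0, limma-voom (3.58.1), filters at 1 count in any library or 10 in every library, protein-coding genes only, an adjusted p of 0.01, and leaving out each library.

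The members and lists were chosen with earlier results of these data known. All members are named. Values in every library are given for the lowest and highest of each role, MCM2 to MCM7, PCNA, E2F1, the cyclins E, nucleotide genes and the members next to the threshold, and in other lists fold changes are given for the 2 lowest and 2 highest genes and 4 set genes. The library values of E2F8 and MKI67, the other E2F, CDK and CDK inhibitor genes, and ORC4 and ORC5 were added after their values were seen. Of the members, 10 have a pseudogene named after them, to which reads may be lost, and 5 share exon bases with a gene on the same strand.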

Additional observations from a re-analysis of the deposited data

Results flagged for a closer look

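One result came from reads outside the gene counts. Uniquely aligned reads that met no annotated exon made up 66.3 ± 3.18% in the PRL3 group and 33.3 ± 6.75% in the EV group (SD, n = 3 in each), above the EV level in every PRL3 library. These reads are not used in the comparison of replication genes except in the scaling by all uniquely aligned reads, and their part in the members' values was not tested.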

How the results depend on the processing

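With library size alone, 13 members were lower and 11 higher and the median log2 fold change turned to 0.046. With all uniquely aligned reads 39 were lower and 0 higher, with a median of -0.94. Under RLE and upper-quartile scaling, DESeq2, limma-voom, both filters, protein-coding genes only and the threshold of 0.01, 20 to 25 members were lower and 2 to 4 higher, with medians of -0.49 to -0.27. Leaving out 1 library gave 19 to 25 lower, 2 to 3 higher and a median of -0.53 to -0.42. With 1 library left out, the difference in the replication to mitosis ratio ranged from -0.41 to -0.29 on the log2 scale. Without MCM7 this difference was smaller, as given above. No paired analysis was possible because the groups share no replicate number.

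Calls of RFC4, PRIM1 and POLE were also lost with upper-quartile scaling and with protein-coding genes only, and that of CCNE2 with RLE scaling (0.57) and all aligned reads (0.12). POLE2 kept its call in 3 of the 5 scalings, and lost it with upper-quartile scaling and with library size alone. Signs turned in members that had not passed and, with library size alone, in PRIM1 and POLE. With library size alone these were ORC1 (0.47), ORC2 (0.26), CDC6 (0.49), CDT1 (0.070), GMNN (0.17), MCM3 (0.27), GINS1 (0.048), GINS3 (0.16), RFC1 (0.32), RFC3 (0.41), POLA1 (0.32), POLA2 (0.39), PRIM1 (0.044), PRIM2 (0.45), POLE (0.065) and LIG1 (0.35). With upper-quartile scaling they were ORC1 (0.16), CDC6 (0.18), RFC1 (0.0067), RFC3 (0.10), POLA1 (0.012), POLA2 (0.074), PRIM2 (0.15) and LIG1 (0.028). With protein-coding genes only they were ORC1 (0.16), CDC6 (0.18), RFC3 (0.10), POLA1 (0.012), POLA2 (0.079), PRIM2 (0.15) and LIG1 (0.031). With all aligned reads they were MCM10 (-0.32), GINS4 (-0.42), RFC2 (-0.25), POLD3 (-0.28) and RRM2 (-0.42). The filter at 1 count in any library turned ORC1 (0.0018) and CDC6 (0.027), that at 10 in every library ORC1 (0.017), CDC6 (0.042) and PRIM2 (0.012), and limma-voom CDC6 (0.0048). Leaving out 1 library gave ORC1 -0.084 to 0.024, CDC6 -0.053 to 0.088, RFC1 -0.37 to 0.25, RFC3 -0.24 to 0.14, PRIM2 -0.11 to 0.087 and RRM2 -0.050 to 0.22. The log2 differences of the ratios ranged from -0.18 to 0.13 for POLA1/POLA2 and from -0.42 to 0.13 for CDT1/GMNN. The cause of these turns was not tested.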
